A study of Mus musculus with 15 samples.

Results

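The cytosolic ribosome is built from ribosomal RNA and a fixed set of ribosomal proteins, and the genes of these proteins (Rpl for the large subunit, Rps for the small subunit) were followed here in mouse liver. They were chosen by name: symbols made of Rpl or Rps, a number and at most 1 letter a, x, l or y, plus the stalk genes Rplp0, Rplp1 and Rplp2, with an estimated read count of 10 or more in at least 3 libraries. Of 80 genes with such a name, 76 met the count rule, out of 20325 genes listed, and 45 of them encode large subunit and 31 small subunit proteins. The choice used symbols and a minimum count, not any difference between groups. Rpl10l, Rpl39l and Rpl3l were among those below the count rule.

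Ribosomal protein mRNAs are abundant in most cells, and their products are needed in like amounts because each ribosome holds a copy of nearly every one. In mammals most of these mRNAs begin with a C and a run of pyrimidines, the 5′ terminal oligopyrimidine (TOP) tract, through which the mTOR kinase and the protein LARP1 set their translation and stability. In liver, ribosome content is known to follow feeding and dietary protein.

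RNA was sequenced from livers of 15 male C57BL/6J mice killed when 19 weeks old, 3 for each of 5 conditions. The conditions were ConvR (conventionally raised, with a microbiota from birth) on HF/HS, GF (germ-free) on HF/HS, ConvD on chow, ConvR on chow and GF on chow. ConvD mice had been GF until 15 weeks of age, then received a single oral gavage of cecal contents from ConvR donors fed chow, and were killed 4 weeks afterwards. The diets were given from 3 weeks of age, sterilised in the same way: HF/HS, high in fat and sucrose, drew 44.6% of its energy from fat, 40.6% from carbohydrate and 14.8% from protein, against 23.7%, 53.2% and 23.1% in chow. HF/HS thus held less protein as well as more fat. Mice shared cages within a group and isolators were kept apart by colonization, so cage and group cannot be told apart. The labels call the 3 samples of a group biological replicates.

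The libraries held 14737578 to 21794811 estimated reads assigned to genes. All 6 hepatocyte markers found in the files were detected, with levels that summed to 38487 to 106233 TPM (RSEM's level per gene length and library size), while the T and NK cell and the B and plasma cell markers summed to at most 7.09 TPM. In bulk liver, fewer cells of a type and less RNA per cell cannot be told apart. The libraries of ConvR chow mice 1 and 2 stood apart: 20 acute phase genes summed to 125661 and 150969 TPM there, against 17428 to 26163 TPM in the other 13. The library of GF chow mouse 1 had the largest ribosomal protein share. Libraries also differed in how read density ran with gene length. CPM are counts per library total after scaling. The Spearman correlation across genes averaging at least 3 log2 CPM, between a library's departure from the mean log2 CPM and gene length, lay between 0.10 and 0.38 in the 9 libraries of the HF/HS and ConvD groups, against 0.06, -0.08 and -0.42 in ConvR chow and -0.45 to -0.19 in GF chow libraries. Ribosomal protein genes are short, with a median length of 681.5 bases against 2800 bases over the 12377 genes tested. Each count of ribosomal protein genes below an adjusted p of 0.05 in a comparison of 2 groups is therefore set beside 1702 other genes of like length (424.14 to 1377.5 bases) and given again with each library's length trend removed. Those genes were mostly less expressed, with a median of 3.66 log2 CPM against 7.24 for the members. Within those bounds they were also longer, with a median of 1037 bases against 681.5 for the members. The shares called, or not overlapping, are thus not matched for expression and only loosely matched for length. The medians over genes of like length share this limit of length.

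Per length, most ribosomal protein genes were expressed within a narrow band. Averaged over the 15 libraries, 71 of the 76 had between 100 and 1000 TPM, and the median was 385 TPM. Rplp1, an acidic protein of the ribosomal stalk that recruits translation factors, had the highest mean at 1094 TPM. Rps2 (934 TPM), Rpl10 (916 TPM), Rpl41 (897 TPM) and Rps18 (746 TPM) came next. The lowest were Rps15a (27.0 TPM), Rps23 (39.4 TPM), Rpl22 (61.2 TPM), Rps27 (61.6 TPM) and Rpl15 (142 TPM). Rps15a has a listed length of 5134 bases, the longest among the members, which lowers its TPM for a given number of reads. The order of the 76 levels was much alike in all livers, with a Spearman correlation between any 2 libraries of 0.85 to 0.99 across members.

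**Figure D1:**
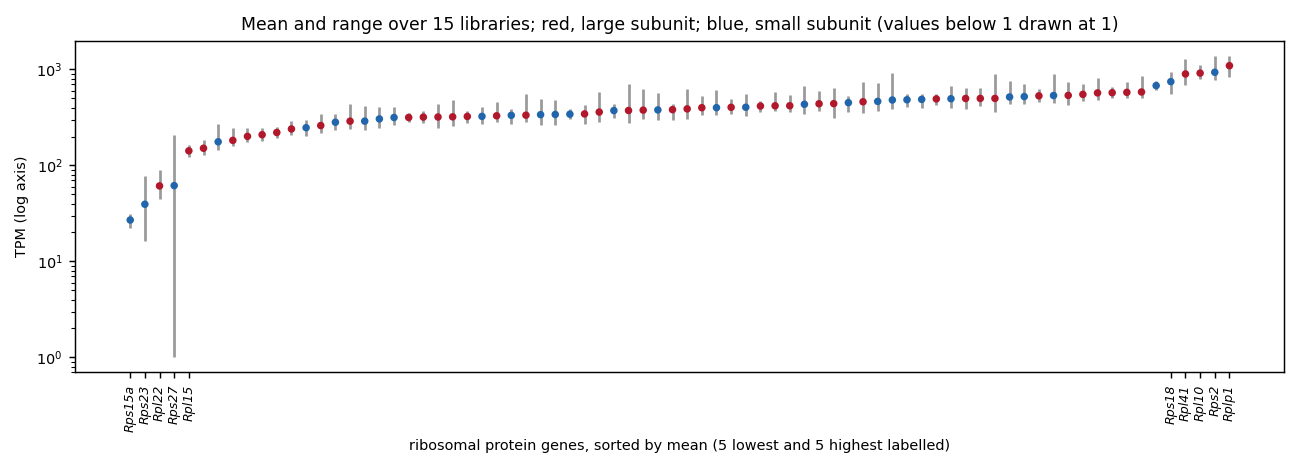
Level of each of the 76 ribosomal protein genes in TPM (log axis), with points for the mean and lines for the range over 15 libraries, large subunit genes in red and small subunit genes in blue, sorted by mean, with the 5 lowest and 5 highest labelled. Levels run from 27.0 TPM (Rps15a) to 1094 TPM (Rplp1), 71 of them between 100 and 1000 TPM, and the Rps27 line reaches the lower edge of the axis because 8 libraries list it at 0.

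Some members could not be measured well. Rps27 was estimated at 0 reads in 8 libraries and at 1, 2 or 3 times 263.3 to 264.0 reads in the other 7, so its values step in fixed blocks and give no usable level. RSEM, the estimator used by the authors, divides reads among near-identical sequences, and ribosomal protein genes have many processed pseudogene copies. Rps23 had 91.0 to 350 estimated reads. Rpl3l, Rpl39l and Rpl10l had at most 3 reads in any library. Neither Rps27 nor Rps23 is named as changed in any comparison, and leaving both out changed the median over members by no more than the spread between libraries.

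As a whole, ribosomal protein mRNA was lowest in livers of ConvR mice on HF/HS. The 76 genes together made up 2.75 ± 0.172% of all TPM in ConvR HF/HS livers, 2.89 ± 0.142% in GF HF/HS livers, 3.16 ± 0.110% in ConvD chow livers, 3.01 ± 0.104% in ConvR chow livers and 3.61 ± 0.404% in GF chow livers (SD, n = 3 each). GF chow mouse 1 had 4.08%, above the 3.34% and 3.41% of the other GF chow mice. The level of the median member, on the log2 CPM scale after library scaling, was 6.83 ± 0.0605 in ConvR HF/HS, 7.15 ± 0.0951 in GF HF/HS, 7.22 ± 0.0446 in ConvD chow, 7.41 ± 0.0449 in ConvR chow and 7.49 ± 0.119 in GF chow livers (SD, n = 3 each). The ConvR HF/HS livers lay below all 12 others on this scale, and GF HF/HS and ConvD chow livers overlapped. The scaling factors (TMM) were 1.05 to 1.13 in ConvR HF/HS and 0.908 to 1.02 in the other 12 libraries, and a larger factor lowers CPM. Before scaling, the members took 1.09% of estimated reads in ConvR HF/HS and 1.18% in GF HF/HS livers. The shares on chow were 1.28% in ConvD, 1.34% in ConvR and 1.52% in GF livers. Of the 76 members, 73 had their lowest group mean in ConvR HF/HS, and 64 had their highest in GF chow and 12 in ConvR chow. With the length trend removed the ConvR HF/HS livers stayed lowest (6.88 to 7.05), while the other 12 lay between 7.17 and 7.41.

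**Figure D2:**
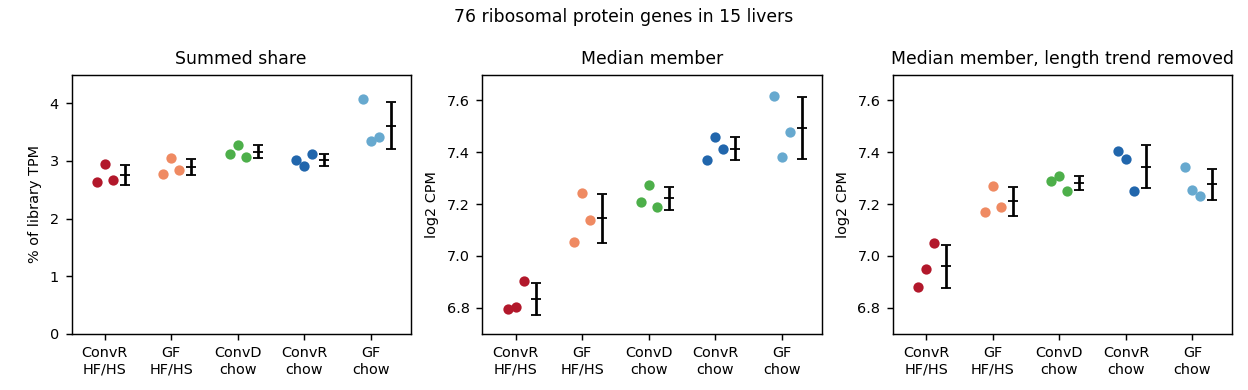
Ribosomal protein genes as a group in each of 15 livers: their summed share of library TPM (percent, axis from 0), the log2 CPM of the median member, and the same with the length trend removed; points are mice, bars the mean ± SD of 3. The 3 ConvR HF/HS livers sit at 6.80 to 6.90 log2 CPM in the middle panel, below all others, and at 6.88 to 7.05 in the right panel, whereas in the left panel they overlap the GF HF/HS and ConvR chow livers.

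In ConvR mice, most ribosomal protein genes were lower on HF/HS than on chow. Of 76 members, 68 were lower and none higher by edgeR's quasi-likelihood test at an adjusted p below 0.05, a rate to be read against 7.8% of all genes tested called lower and 12.9% of genes of like length. The median log2 fold change of the members was -0.50, against -0.02 over all genes and -0.12 over genes of like length, with an interquartile range over members of -0.62 to -0.40. Of the genes of like length, 252 averaged at least 6.19 log2 CPM. Their median departure from the mean over libraries was -0.08 ± 0.038 in ConvR HF/HS and -0.03 ± 0.12 in ConvR chow livers. For the members it was -0.35 ± 0.067 and 0.16 ± 0.035 log2 CPM (SD, n = 3 each). In 74 members every HF/HS liver was below every chow liver in CPM, as were 17.2% of all genes and 29.3% of genes of like length. Both subunits took part, with 43 of 45 large subunit genes (median -0.48) and 25 of 31 small subunit genes (median -0.53) called lower. For 56 members the call held whichever of the 15 libraries was left out.

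The largest decrease was that of Rpl12, followed by Rpl13a, Rpl13, Rps21, Rplp1 and Rps10. Rpl12, whose protein sits at the base of the stalk, had 97.2, 97.5 and 109 CPM in ConvR HF/HS livers, against 196, 178 and 192 CPM in ConvR chow livers. The groups did not overlap, and the log2 fold change was -0.90 ± 0.0858 (SE; edgeR adjusted p = 7.01e-05). The stalk gene Rplp1 had 186, 187 and 199 CPM in ConvR HF/HS livers, against 332, 343 and 307 CPM in ConvR chow livers (log2 fold change -0.78 ± 0.0877, edgeR adjusted p = 0.000182). Its partner Rplp2 fell by 0.67 and Rplp0, the scaffold of the stalk, by 0.54 on the log2 scale (edgeR adjusted p = 0.00134 and 0.00158), so all 3 stalk genes were lower.

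Among small subunit genes, Rps21 and Rps10 moved most. Rps21 had 51.2, 49.7 and 51.6 CPM in ConvR HF/HS livers, against 88.7, 95.0 and 80.5 CPM in ConvR chow livers (log2 fold change -0.79 ± 0.0832, edgeR adjusted p = 0.000114). Rps10, a protein near the mRNA entry site, had 91.7, 93.7 and 98.4 CPM in ConvR HF/HS livers, against 162, 156 and 157 CPM in ConvR chow livers (log2 fold change -0.74 ± 0.0748, edgeR adjusted p = 0.000101). In both genes the chow livers were clear of the HF/HS livers. Rpl13 and Rpl13a, of the large subunit, fell by 0.83 ± 0.151 and 0.84 ± 0.14 on the log2 scale (edgeR adjusted p = 0.00286 and 0.0018). Rpl13a had 148, 151 and 177 CPM in ConvR HF/HS livers, against 287, 299 and 265 CPM in ConvR chow livers. Of the 6 genes with the largest decreases, Rpl13 and Rpl13a alone lost their call without ConvR chow mice 1 and 2 (edgeR adjusted p = 0.0616 and 0.0633).

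Other members fell by less. Rpl5 and Rpl11 carry the 5S ribosomal RNA and also bind the p53 regulator Mdm2. Rpl5 had 203, 207 and 220 CPM in ConvR HF/HS livers, against 274, 279 and 280 CPM in ConvR chow livers, and fell by 0.40 on the log2 scale, close to the decrease of 0.44 for Rpl11 (edgeR adjusted p = 0.00343 and 0.00681). Rps6, the ribosomal substrate of the S6 kinases, had 200, 219 and 229 CPM in ConvR HF/HS livers, against 282, 277 and 284 CPM in ConvR chow livers (log2 fold change -0.38 ± 0.0911, edgeR adjusted p = 0.0133). Rpl3, which reaches towards the peptidyl transferase centre, fell by 0.57, Rpl4, which lines the exit tunnel, by 0.43, and Rps27a, made as a fusion with ubiquitin, by 0.57 on the log2 scale (edgeR adjusted p = 0.00177, 0.0116 and 0.000648). Of these, the Rps6 call was lost without ConvR HF/HS mouse 1 (edgeR adjusted p = 0.0601).

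Among the 8 members not called were Rpl19, Rpl22, Rps14, Rps23, Rps24, Rps27 and Rps27l. Apart from Rps23 and Rps27, the log2 fold changes ran from -0.46 (Rps14) to -0.19 (Rps27l), and every HF/HS liver was below every chow liver. Rps27l, a paralog of Rps27 with 53.8, 58.9 and 57.8 CPM in ConvR HF/HS livers and 59.1, 61.8 and 73.3 CPM in ConvR chow livers, had the smallest difference of these 6 (edgeR adjusted p = 0.176).

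**Figure D3:**
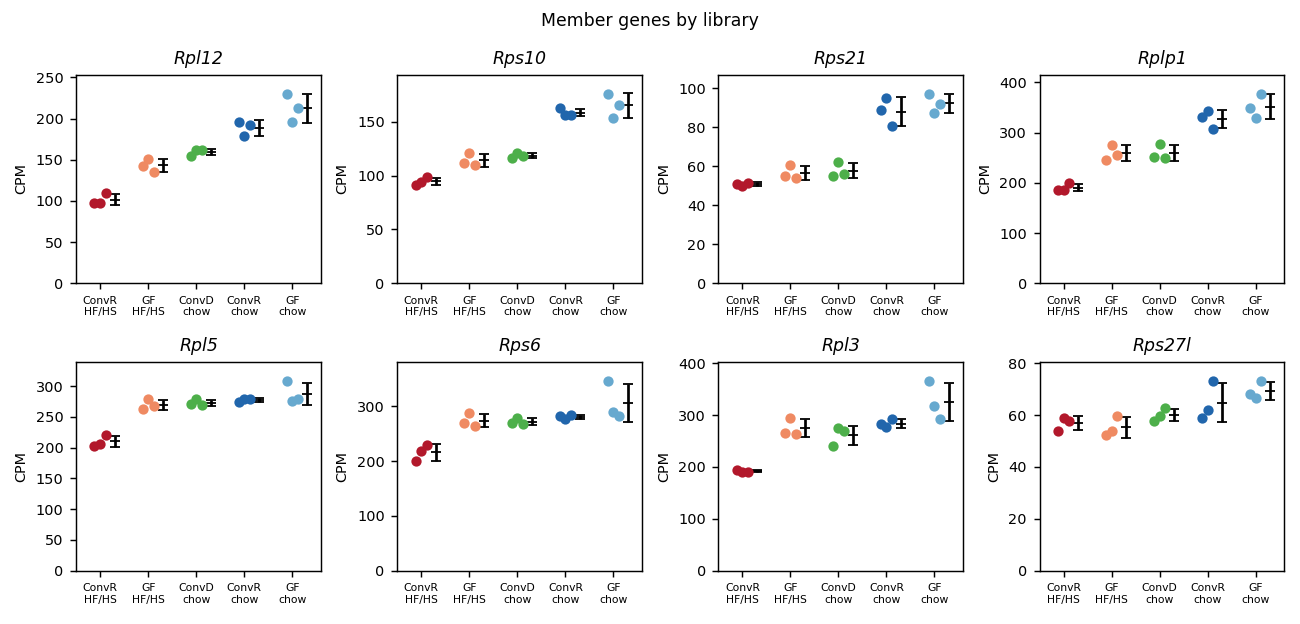
CPM (axis from 0) of 8 ribosomal protein genes in each liver, points for mice and bars for the mean ± SD of 3. Rpl12, Rps10, Rps21 and Rplp1 are lowest in ConvR HF/HS and step up through GF HF/HS and ConvD chow to ConvR chow and GF chow, Rpl5, Rps6 and Rpl3 are low mainly in ConvR HF/HS, and Rps27l is lower in GF HF/HS than in GF chow livers, while its ConvR groups lie closer together.

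After removal of each library's length trend, 48 of the 68 calls in ConvR mice remained, with none added, where 7.11% of all genes were called lower, and the members' median was -0.32. Genes of like length then had a median of 0.01. On TPM, tested with limma on log2(TPM + 1), only 15 members were lower and their median was -0.10, while 2.17% of all genes were called lower and 47.1% higher. The median of all genes stood at 0.30 on that scale, and the members stood 0.40 below it. ConvR chow mice 1 and 2 bear on this comparison: without them 34 members were called lower, and the median was -0.50, and with GF chow mouse 1 left out as well 69 were called lower. Marker sums also differed between these groups: hepatocyte markers summed to 77756 to 97546 TPM in ConvR HF/HS against 38487 to 71147 TPM in ConvR chow livers, and Kupffer cell and macrophage markers to 386 to 523 TPM against 306 to 349 TPM. Endothelial markers summed to 123 to 136 TPM against 86.3 to 98.9 TPM, and neutrophil and monocyte markers to 8.64 to 11.8 TPM against 16.3 to 129 TPM. Their part in the result was not tested.

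The members that fell together were also looked at in sequence, since the TOP tract is the feature they are known to share. RefSeq promoter sequences of the mouse build GRCm38.p6 were found for 56 of the 76 members, and the files themselves used mm9, so these positions are not those of the counting. A C at the annotated start followed by at least 4 pyrimidines (C or T), read on the gene's own strand only, stood in 13 members (23.2%), against 800 of 26969 other genes (2.97%). Allowing the run to begin within 10 bases either side gave 35 members (62.5%), against 34.3% of the other genes. The sequences below run 5′ to 3′ from 40 bases before the annotated start to 25 bases from it onwards. Capitals mark the run that covers the start or, failing that, begins nearest to it, and Rpl13 has none in reach. The first 5 are shown because their run covers the start, Rpl13a and Rpl12 because it lies just after the start, and Rpl13 as a strongly lowered gene without it.
Rps21 (chr2:180257339-180257403, plus strand): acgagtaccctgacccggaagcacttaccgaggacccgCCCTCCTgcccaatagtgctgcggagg
Rps10 (chr17:27635220-27635284, minus strand): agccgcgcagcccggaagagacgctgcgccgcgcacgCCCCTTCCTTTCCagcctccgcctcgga
Rplp2 (chr7:141447611-141447675, plus strand): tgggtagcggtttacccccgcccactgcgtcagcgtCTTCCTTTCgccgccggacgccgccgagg
Rpl38 (chr11:114668540-114668604, plus strand): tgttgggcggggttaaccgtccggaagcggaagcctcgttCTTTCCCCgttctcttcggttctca
Rps6 (chr4:86857343-86857407, minus strand): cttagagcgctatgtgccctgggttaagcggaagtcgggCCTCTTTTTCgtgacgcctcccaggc
Rpl13a (chr7:45128721-45128785, minus strand): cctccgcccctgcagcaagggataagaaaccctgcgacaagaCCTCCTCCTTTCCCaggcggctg
Rpl12 (chr2:32961672-32961736, plus strand): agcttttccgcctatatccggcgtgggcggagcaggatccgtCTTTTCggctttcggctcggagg
Rpl13 (chr8:123102310-123102374, plus strand): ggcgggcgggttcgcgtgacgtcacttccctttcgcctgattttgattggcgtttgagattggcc

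The diet difference was also set out by this run, without a test. In ConvR mice the 13 members with it at the start had a median log2 fold change of -0.53, against -0.52 in the 43 without, and in GF mice the medians were -0.30 and -0.41. Among the sequences shown, Rps21 with the run at its start and Rpl13 without it fell by 0.79 and 0.83 on the log2 scale in ConvR mice, and Rps6, with a run of 10 pyrimidines across its start, by 0.38. A run of letters near an annotated start is a description and not evidence of where transcripts begin.

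In GF mice, ribosomal protein genes were also lower on HF/HS. Here 42 of 76 members were lower and none higher by edgeR, while 5.45% of all genes and 14.2% of genes of like length were called lower. The median was -0.34, against -0.01 over all genes and -0.17 over genes of like length. In 60 members every HF/HS liver lay below every chow liver in CPM, as in 16.2% of all genes and 33% of genes of like length. With the length trend removed, 6 calls remained (Rpl12, Rpl13, Rpl27a, Rpl36, Rps15a and Rps21; 2.67% of all genes called lower) and the median was -0.12, against 0.01 for genes of like length. Rps15a is read with care there because of its listed length. On TPM, 24 members were lower by limma, against 15 in the ConvR diet comparison, the reverse of the order by edgeR. The share of all genes called lower on that scale is not given here. Hepatocyte markers summed to 103188 to 106233 TPM in GF HF/HS against 68649 to 88869 TPM in GF chow livers, exocrine pancreas markers to 40.5 to 48.6 TPM against 56.8 to 61.5 TPM, cholangiocyte markers to 4.29 to 5.01 TPM against 5.65 to 12.0 TPM, and neutrophil and monocyte markers to 4.15 to 6.26 TPM against 6.60 to 28.2 TPM. Their part in the result was not tested.

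The named genes of the GF comparison were Rpl13, Rps21, Rpl13a, Rpl36, Rpl38 and Rplp2. Rps21 had 55.2, 60.6 and 54.0 CPM in GF HF/HS livers, against 97.4, 87.2 and 92.2 CPM in GF chow livers (log2 fold change -0.70 ± 0.0831, edgeR adjusted p = 0.000635). Rpl36 had 70.6, 74.3 and 70.6 CPM in GF HF/HS livers, against 134, 101 and 114 CPM in GF chow livers (log2 fold change -0.69 ± 0.0975, edgeR adjusted p = 0.00205). GF chow mouse 1 was the highest GF chow liver for both. Rpl38, which in mice is known from skeletal patterning mutants, had 50.3, 57.6 and 52.0 CPM in GF HF/HS livers, against 103, 73.8 and 78.0 CPM in GF chow livers (log2 fold change -0.67 ± 0.109, edgeR adjusted p = 0.00418). Rpl13 fell by 0.75, Rpl13a by 0.70 and Rplp2 by 0.67 on the log2 scale. Leaving out 1 library gave 20 to 44 calls, with 20 without GF HF/HS mouse 1 or 3, and the Rpl13 call was lost without GF HF/HS mouse 1 (edgeR adjusted p = 0.0525). Fitting the GF livers alone gave 6 calls. Several members that fell in ConvR mice were nearly level here. Rpl5 had 262, 279 and 267 CPM in GF HF/HS livers and 309, 276 and 279 CPM in GF chow livers (log2 fold change -0.09 ± 0.0753, edgeR adjusted p = 0.457), and Rps4x had 242, 264 and 247 CPM and 261, 271 and 281 CPM (log2 fold change -0.11 ± 0.078, edgeR adjusted p = 0.389).

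The pair of diet comparisons shares no library. The fitted change was below 0 in both for 74 members, 41 were called lower in both, 27 in ConvR mice alone and 1, Rps27l, in GF mice alone. The decrease was larger in ConvR than in GF mice for 67 members, and the 76 log2 fold changes had a Spearman correlation of 0.64 across members, which share libraries and are not independent replicates. Of all genes, 7.8% were called lower in ConvR mice and 5.45% in GF mice. The shares of all genes for the joint counts are not given here. Those counts describe the members and do not set them apart from other genes. Whether the diet difference itself differed between ConvR and GF mice was tested by the interaction, the ConvR minus GF difference on HF/HS less that on chow. No member was called by edgeR (0% of all genes tested, 0 of 12377), 21 members had an unadjusted p below 0.05, as did 12.7% of all genes and 12.6% of genes of like length, and DESeq2 called 2 (3.08% of the 5233 genes to which it gave an adjusted p, 74 members among them), Rps4x and Rpl5 (DESeq2 adjusted p = 0.00837 and 0.0476). Without ConvR chow mouse 3 edgeR called 1, Rps4x (edgeR adjusted p = 0.042). The median over members was -0.16, against 0.05 over genes of like length, and -0.24 with the length trend removed. On TPM it was 0.18, where the median of all genes was 0.27. The smallest p belonged to Rps4x (-0.41 ± 0.11, edgeR adjusted p = 0.215), Rpl5 (-0.31 ± 0.106, adjusted p = 0.28) and Rpl35 (-0.36 ± 0.126, adjusted p = 0.29), and on the positive side to Rps23, whose estimates are few reads, Rps27l (0.14 ± 0.126, adjusted p = 0.678) and Rpl36 (0.13 ± 0.137, adjusted p = 0.713). In the edgeR fit of all 15 libraries, a larger decrease in ConvR mice was thus not shown for any single member.

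**Figure D4:**
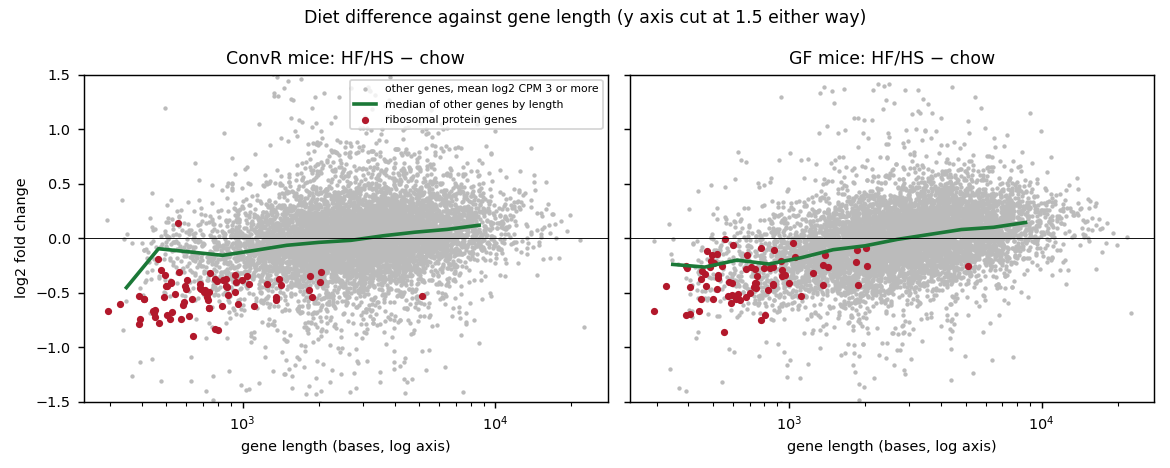
Log2 fold change of HF/HS against chow in ConvR mice (left) and GF mice (right), plotted on gene length in bases (log axis) for other genes averaging 3 or more log2 CPM (grey), with their running median (green) and the ribosomal protein genes (red). The green line rises with length in both panels, and the red points lie well below it on the left (median -0.50, against -0.12 for genes of like length) and nearer to it on the right (-0.34 against -0.17).

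On HF/HS itself, ribosomal protein genes were somewhat lower in ConvR than in GF livers. By edgeR 10 members were lower and none higher, against 0.735% of all genes and 0.823% of genes of like length called lower. The 10 were Rpl12, Rpl21, Rpl23, Rpl3, Rpl5, Rplp1, Rps18, Rps27a, Rps4x and Rps7. The median was -0.28, against -0.01 over all genes and -0.03 over genes of like length, and in 69 members all ConvR livers were below all GF livers, as in 14.6% of all genes and 17.2% of genes of like length. Scaling factors differed between these groups, at 1.05 to 1.13 in ConvR and 0.963 to 0.974 in GF livers. Before scaling, the members took 1.09% and 1.18% of estimated reads. This comparison shares its ConvR HF/HS livers with the diet comparison in ConvR mice and its GF HF/HS livers with that in GF mice.

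Rpl3 had 193, 190 and 191 CPM in ConvR HF/HS livers, against 266, 295 and 263 CPM in GF HF/HS livers (log2 fold change -0.52 ± 0.0937, edgeR adjusted p = 0.0148). Rpl12 had 97.2, 97.5 and 109 CPM in ConvR HF/HS livers, against 143, 151 and 135 CPM in GF HF/HS livers (log2 fold change -0.50 ± 0.0854, edgeR adjusted p = 0.0112). The groups were well apart in both genes. Rplp1 fell by 0.44, Rps18 by 0.42, Rps7 by 0.40 and Rps4x by 0.37 on the log2 scale (edgeR adjusted p = 0.0239 to 0.0354). Rps21, among the largest diet differences, had 51.2, 49.7 and 51.6 CPM in ConvR HF/HS livers and 55.2, 60.6 and 54.0 CPM in GF HF/HS livers and was not called.

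With the length trend removed, 5 of these calls remained (Rpl12, Rpl21, Rpl3, Rpl5 and Rps7), where 0.695% of all genes were called lower, and the median was -0.23. On TPM no member was called (limma, 0.396% of all genes called lower), with a median of -0.07 where all genes had 0.16. The count rested on single libraries. It was 0 without GF HF/HS mouse 2 or ConvR HF/HS mouse 2, 1 or 2 without GF HF/HS mouse 3 or ConvR HF/HS mouse 1, and 3 to 6 without GF HF/HS mouse 1 or any 1 ConvD mouse. It was 31 without GF chow mouse 1, which belongs to neither group, and no call held whichever library was left out. Kupffer cell and macrophage markers summed to 386 to 523 TPM in ConvR HF/HS against 285 to 355 TPM in GF HF/HS livers, and hepatocyte markers to 77756 to 97546 TPM against 103188 to 106233 TPM. Endothelial markers summed to 123 to 136 TPM against 102 to 114 TPM, neutrophil and monocyte markers to 8.64 to 11.8 TPM against 4.15 to 6.26 TPM, and exocrine pancreas markers to 15.7 to 24.7 TPM against 40.5 to 48.6 TPM. Their part in the result was not tested.

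On chow, conventionalization of GF mice went with lower counts of many ribosomal protein genes. Between ConvD and GF mice, 28 members were lower and none higher by edgeR, against 3.34% of all genes and 10% of genes of like length called lower. The median was -0.31, against -0.17 over genes of like length. In 58 members all ConvD livers were below all GF livers, as in 14.8% of all genes and 32.4% of genes of like length. Rps21 had 55.1, 62.2 and 56.0 CPM in ConvD livers, against 97.4, 87.2 and 92.2 CPM in GF livers (log2 fold change -0.68 ± 0.083, edgeR adjusted p = 0.00309). Rplp2 had 69.9, 70.6 and 74.1 CPM in ConvD livers, against 136, 97.4 and 111 CPM in GF livers (log2 fold change -0.69 ± 0.105, edgeR adjusted p = 0.0063). In both genes the ConvD livers were close together and below all GF livers. Rpl13 fell by 0.67, Rpl13a by 0.61, Rpl36 by 0.59 and Rps20 by 0.54 on the log2 scale. With the length trend removed, the members' median was -0.11, against 0.01 for genes of like length, and none of the 28 calls remained. Rps15a, not among the 28 (edgeR adjusted p = 0.0696), was then the 1 member called lower, as were 1.35% of all genes. It is read with care because of its listed length. The count was 5, 9 and 7 without ConvD mouse 1, 2 or 3, and 18 without GF chow mouse 1, and reached 35 without GF chow mouse 2. With only these 6 livers fitted, no member was called. Stellate cell markers summed to 146 to 168 TPM in ConvD against 100.3 to 138 TPM in GF livers, exocrine pancreas markers to 29.6 to 31.9 TPM against 56.8 to 61.5 TPM, cholangiocyte markers to 3.80 to 4.63 TPM against 5.65 to 12.0 TPM, and B and plasma cell markers to 4.90 to 5.68 TPM against 2.96 to 4.37 TPM. Their part in the result was not tested.

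Between ConvD and ConvR mice on chow, 9 members were lower and none higher by edgeR (3.3% of all genes and 6.58% of genes of like length called lower): Rpl34, Rpl39, Rpl41, Rplp1, Rplp2, Rps10, Rps12, Rps20 and Rps21. Rps21 had 55.1, 62.2 and 56.0 CPM in ConvD livers, against 88.7, 95.0 and 80.5 CPM in ConvR livers (log2 fold change -0.61 ± 0.083, edgeR adjusted p = 0.0046). Rps10 had 117, 121 and 118 CPM in ConvD livers, against 162, 156 and 157 CPM in ConvR livers (log2 fold change -0.42 ± 0.0744, edgeR adjusted p = 0.0113). The median over members was -0.20, against -0.09 over genes of like length, and -0.10 with the length trend removed, where Rplp2, Rps10, Rps15a and Rps21 were called lower, as were 3.2% of all genes. Rps15a was not among the 9 (edgeR adjusted p = 0.0563) and is read with care because of its listed length. On TPM the median turned to 0.08, with 5 members higher and 1 lower by limma (28.5% and 1.64% of all genes), where the median of all genes was 0.21. Without ConvR chow mice 1 and 2 no member was called, and leaving out 1 library gave 1 to 23 calls: 1 without ConvD mouse 1 or 2, 4 without ConvD mouse 3, 3 without ConvR chow mouse 1 or 2, 5 without any 1 GF HF/HS mouse and 23 without GF chow mouse 1. Hepatocyte markers summed to 82715 to 98568 TPM in ConvD against 38487 to 71147 TPM in ConvR livers, endothelial markers to 105 to 116 TPM against 86.3 to 98.9 TPM, and neutrophil and monocyte markers to 6.23 to 10.9 TPM against 16.3 to 129 TPM. The T and NK cell and the B and plasma cell markers, all at low levels, were also higher in every ConvD liver. Their part in the result was not tested.

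Between ConvR and GF mice on chow, 1 ribosomal protein gene was called by edgeR. It was Rpl36, lower in ConvR mice, against 2.17% of all genes and 2.53% of genes of like length called lower. Rpl36 had 83.4, 82.9 and 97.1 CPM in ConvR livers, against 134, 101 and 114 CPM in GF livers (log2 fold change -0.41 ± 0.0971, edgeR adjusted p = 0.034), and the count was 0 without any 1 of GF chow mouse 1, ConvR chow mouse 1 or 2, ConvD mouse 2 or GF HF/HS mouse 3. The median over members was -0.11, against -0.07 over genes of like length, and 0.01 with the length trend removed, where no member was called and 1.9% of all genes were lower. On TPM the median was -0.25, where that of all genes was -0.10, and 3 members, Rpl36, Rpl27a and Rpl37, were lower by limma (6.28% of all genes). In 12 members all ConvR livers were below all GF livers, as in 9.74% of all genes and 12.5% of genes of like length. Stellate cell markers summed to 149 to 169 TPM in ConvR against 100.3 to 138 TPM in GF livers, and exocrine pancreas markers to 18.2 to 44.3 TPM against 56.8 to 61.5 TPM, and their part in the result was not tested. All 3 chow comparisons share groups with each other and with the diet comparisons.

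**Figure D5:**
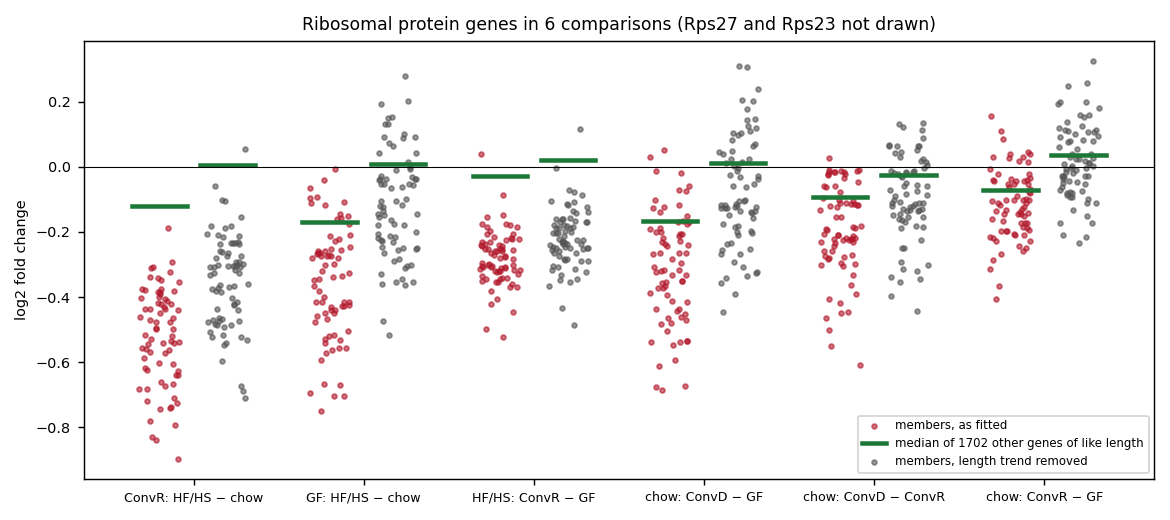
Log2 fold changes of the ribosomal protein genes in 6 comparisons, as fitted (red) and with the length trend removed (grey), with the median of 1702 other genes of like length as a green bar; Rps27 and Rps23 are left out. The medians run from -0.50 (ConvR, HF/HS against chow) to -0.11 (chow, ConvR against GF), and with the trend removed from -0.32 to 0.01.

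Genes for ribosomal or ribosome-bound proteins with other kinds of symbol were lower on HF/HS in part. Of 7 tested, 5 were lower and none higher by edgeR in ConvR mice (7.8% of all genes lower), and 4 were lower and none higher in GF mice (5.45%). Removing the length trend gave 5 lower in ConvR mice (7.11% of all genes) and 1 in GF mice (2.67%). Rpsa, a small subunit protein also known as the laminin receptor, had 266, 265 and 282 CPM in ConvR HF/HS livers, against 457, 493 and 443 CPM in ConvR chow livers (log2 fold change -0.78, edgeR adjusted p = 0.00105). Gnb2l1, which encodes the scaffold RACK1, fell by 0.60 and Fau, made as a fusion with a ubiquitin-like protein, by 0.52 on the log2 scale.

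The paralog Rpl22l1 had the largest difference of this list. It had 11.7, 9.50 and 12.1 CPM in ConvR HF/HS livers, against 30.7, 28.3 and 23.7 CPM in ConvR chow livers (log2 fold change -1.31 ± 0.15, edgeR adjusted p = 0.000197). Rpl22, its partner, had 59.5, 63.2 and 65.8 CPM in ConvR HF/HS livers and 74.8, 70.3 and 88.4 CPM in ConvR chow livers and was not called (log2 fold change -0.31 ± 0.121, edgeR adjusted p = 0.102). In GF mice Rpl22l1 had 20.9, 22.9 and 21.9 CPM on HF/HS, against 37.1, 34.1 and 35.4 CPM on chow (log2 fold change -0.70, edgeR adjusted p = 0.0126), a call lost with the length trend removed (-0.38, edgeR adjusted p = 0.145). Between ConvR and GF livers on HF/HS its log2 fold change was -0.98 (edgeR adjusted p = 0.00629), or -0.90 with the trend removed (edgeR adjusted p = 0.0123).

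Of 18 tested genes for other mRNAs known to carry a TOP tract, 2 were lower and none higher by edgeR in ConvR mice on HF/HS (11.1%, against 7.8% of all genes), with a median of -0.11, or -0.02 with the length trend removed. In GF mice 2 were also lower and none higher (11.1%, against 5.45% of all genes). In both comparisons they were Eef1b2 and Eef1g, parts of the exchange factor that recharges elongation factor 1A, which fell by 0.57 and 0.43 on the log2 scale in ConvR mice (edgeR adjusted p = 0.00541 and 0.00878) and by 0.53 and 0.35 in GF mice (edgeR adjusted p = 0.0157 and 0.0335). The Eef1g call in GF mice was lost with the length trend removed (edgeR adjusted p = 0.129). Of 39 ribosome biogenesis genes, 19 were lower and none higher by edgeR in ConvR mice (7.8% of all genes lower), with a median of -0.38. With the length trend removed 19 were also lower (7.11% of all genes). The core proteins of box C/D ribonucleoproteins Nop58 and Nop56, which guide modification of ribosomal RNA, fell by 0.68 and 0.74, and the assembly factors Tsr1 and Nop16 by 0.70 and 0.52 on the log2 scale. In GF mice 6 of the 39 were lower and none higher (5.45% of all genes lower), and 3 were lower with the length trend removed (2.67% of all genes).

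Of 27 genes of mTOR signalling and ribosomal protein gene regulation, 6 were higher and none lower by edgeR in ConvR mice on HF/HS (22.2%, against 6.75% of all genes called higher), and 4 were higher with the length trend removed. The share of all genes called higher with the trend removed is not given here for either diet comparison. Sesn2, a leucine sensor that restrains mTOR complex 1, rose by 0.99 ± 0.14, Mtor, the kinase itself, by 0.71 ± 0.12, and Tsc1 and Tsc2, which together restrain it, by 0.42 and 0.30 on the log2 scale (edgeR adjusted p = 0.000852, 0.0018, 0.0282 and 0.0343). The Tsc2 call was lost with the length trend removed (edgeR adjusted p = 0.0599). In GF mice 6 were higher (22.2%, against 4.1% of all genes) and 1 lower (5.45% of all genes lower). With the trend removed 5 were higher and 1 lower (2.67% of all genes lower). Yy1 (0.50), Gabpa (0.44) and Sesn2 (0.72) were among the higher ones. The lower one was Myc (-2.83 ± 0.686, edgeR adjusted p = 0.0229), also with the trend removed (-2.80, edgeR adjusted p = 0.0332). In ConvR mice Myc was not called (-1.17 ± 0.709, edgeR adjusted p = 0.293). Other sets of housekeeping genes gave a scale in the ConvR diet comparison, where edgeR called 7.8% of all genes lower and 6.75% higher. By edgeR, 11 of 76 mitochondrial ribosomal protein genes were lower and none higher (median -0.12). For respiratory chain genes, 2 of 80 were lower and 1 higher (median 0.05), and for proteasome genes 3 of 39 were lower and 1 higher (median -0.07). These counts describe the lists, and no test set one list against another.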

How the data were processed

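Liver polyadenylated RNA of 15 mice was made into stranded libraries with an Illumina TruSeq kit, per the labels' protocols. Per the submitters' processing notes, the authors used Bowtie2, RSEM 1.2.23 and the mouse build mm9. The deposited expected counts are RSEM estimates per gene, with fractions and with no scaling across mice. The deposited TPM values were scaled by the authors' RSEM run within each library by gene length. The gene lengths are those the authors deposited.

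Groups came from the sample titles. Rounded expected counts of all 15 libraries were fitted in edgeR 4.0.16 (R 4.3.3) with 5 group means, TMM scaling and filterByExpr (minimum count 10), leaving 10 residual degrees of freedom. The two-sided quasi-likelihood F test was adjusted by Benjamini-Hochberg over the 12377 genes tested, and a gene was called below 0.05. The standard error (SE) was obtained from F and the log2 fold change. CPM used the scaled totals. Members, gene lists, naming rule and alternatives were chosen with earlier results of these data known. In each comparison the naming rule took the 6 called members with the largest fold change and no overlap, or the 3 each way with the smallest p where none was called, and in addition stalk, 5S particle, paralog and a few functional members. It took the 5 highest and 5 lowest by TPM, and up to 4 genes of each related list by p.

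The length trend was a lowess curve (span 0.5) per library of relative log2 CPM on log2 length, over genes averaging at least 3 log2 CPM, entered as an offset. TPM was tested as log2(TPM + 1) with limma 3.58.1, whose fold changes understate those of low genes. Genes of like length were the non-members between the 10th and 90th length percentile of the members. Other alternatives were DESeq2 1.42.0 and its size factors, no filter, a replicate block, groups fitted alone, and libraries left out. Estimating the length trend without the members, leaving out Rps27 and Rps23, removing the length trend within the genes of like length, and leaving out GF chow mouse 1 together with ConvR chow mice 1 and 2 were chosen after seeing the data. The fit was tested on simulated data. Strand was kept by the kit, but how the counting used it is not given in the sources used here.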

Additional observations from a re-analysis of the deposited data

How the results depend on the processing

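No named call changed sign under the settings run. The medians of ConvD against ConvR and of the interaction turned positive on TPM, that of ConvR against GF on chow turned positive with the length trend removed, and counts moved. Counts given below without a share of all genes show only how calls moved with the setting. They do not set the members against other genes. The pooled SD of the median member between mice was 0.0786 (log2). On log2(TPM + 1) (limma) the members called were 15 (median -0.10) for diet in ConvR mice, 24 for diet in GF mice, 0 (-0.070) for ConvR against GF on HF/HS, 5 (-0.16) for ConvD against GF, 3 (-0.25) for ConvR against GF on chow, with medians of 0.079 for ConvD against ConvR and 0.18 for the interaction. With the length trend removed they were, in the same order, 48 (-0.32), 6 (-0.12), 5, 1 (-0.11) and 0 (0.0063), with 4 (-0.10) for ConvD against ConvR. With the trend estimated without the members they were 55 (-0.37), 7 (-0.14), 6, 1 (-0.12), 0 (0.0098) and 4 (-0.12), with an interaction median of -0.26. DESeq2 called 32 for ConvR against GF on HF/HS (1.78% of all genes with an adjusted p called lower), 44 for ConvD against GF (6.1%), 20 for ConvD against ConvR (4.41%) and 2 for the interaction (3.08% either way). With only the compared groups fitted, 6 were called for diet in GF mice, 0 for ConvD against GF, 2 for ConvD against ConvR and 0 for ConvR against GF on chow. Without ConvR chow 1 and 2 the counts were 34 for diet in ConvR mice, 0 for ConvD against ConvR and 0 for ConvR against GF, and leaving out GF chow 1 as well gave 69 for diet in ConvR mice and 39 in GF mice. Replicate numbers were not taken to pair the mice, since in no comparison did all 3 same-numbered pairs correlate above 0.1 in their deviations from the group means; the nearest was ConvD against GF, at 0.0692 to 0.108. With the replicate number as a block, 66 members were called for diet in ConvR mice, 36 for diet in GF mice, 4 for ConvR against GF on HF/HS, 23 for ConvD against GF, 5 for ConvD against ConvR and 0 for ConvR against GF on chow.

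With 1 library left out, calls ranged from 57 to 73 for diet in ConvR mice (median -0.54 to -0.47), 20 to 44 for diet in GF mice (-0.40 to -0.30), 0 to 31 for ConvR against GF on HF/HS (-0.31 to -0.23), 5 to 35 for ConvD against GF (-0.35 to -0.23), 1 to 23 for ConvD against ConvR (-0.22 to -0.17), 0 to 1 for ConvR against GF on chow (-0.16 to -0.04) and 0 to 1 for the interaction (-0.23 to -0.09). Without Alb and the 10 genes of highest TPM the members' summed share was 3.66% in ConvR HF/HS, 4.01% in GF HF/HS, 4.21% in ConvD chow, 4.15% in ConvR chow and 4.82% in GF chow livers. The cause of these shifts was not tested. With 3 mice a group, a missed call does not show equal levels, and how reads were divided among near-identical copies was not tested.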
